A study of Mus musculus with 2 samples.

Results

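Chromatin accessibility was examined at 8 genes of the T cell receptor complex and its first signalling steps, Cd3d, Cd3e, Cd3g, Cd247, Lck, Zap70, Lat and Cd28, in haematopoietic stem cells (HSCs), the cells from which T cells and the other blood lineages descend. The genes are 8 of 21853 protein-coding genes in GENCODE release M21 on mm10. Every accessible region that overlapped one of their gene bodies, extended by 50 kb on each side, was taken. In the main list these windows held 32 of 31532 regions. Because 3 genes lie side by side, the 8 windows form 6 separate stretches of 837 kb in all.

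The assay was ATAC-seq, which marks open DNA by letting a transposase cut and tag it, and the results were deposited as lists of peaks. There was 1 group of 2 libraries, biological replicates 1 and 2, both of HSCs from C57BL/6J adults, 5 to 6 weeks old, with no treatment or genotype to compare. Both carry 1 donor identifier, so it is not known that they represent separate animals, and differences between them may be technical. The labels name no markers for isolating the cells, give the sex as not collected, and give a start of 50000 cells for replicate 2 alone. Each replicate has a list thresholded on the irreproducible discovery rate (IDR), which keeps peaks whose rank repeats, and a longer, more permissive pseudoreplicated list. From both replicates together there are 4 lists, conservative IDR (the main list here), IDR, replicated and pseudoreplicated. Peaks that overlapped within a list were joined into regions, and a region took the signal and summit of its peak of highest signal. The signal is the authors' value for each peak, with no stated scaling, so a region was placed by its percentile, the share of regions in the same list with a lower signal. The genes were selected on the peaks at their starts in these lists, with Cd3d listed there and Cd3e and Cd3g not, so the values below are a description with no test.

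The T cell receptor binds its antigen with chains that have almost no cytoplasmic part, and it signals through the CD3 chains and the CD3ζ chain. The kinase LCK phosphorylates tyrosine motifs in those chains, ZAP-70 binds the phosphorylated motifs and phosphorylates the membrane adaptor LAT, and LAT gathers the enzymes that carry the signal onward. CD28 delivers the costimulatory signal beside the receptor. These proteins work in T cells, and HSCs carry no T cell receptor.

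The shortest of the 8 lists, IDR for replicate 2, held 22434 regions and the longest, pseudoreplicated for both replicates, held 86702. Read depth is unknown, so a start without a region is one where no peak was listed and not one shown to be inaccessible. Of 16 stem and progenitor cell markers, 11 had a region within 1 kb of a start in the main list, against 52.3% of all genes. All 16 had one in the replicated and pseudoreplicated lists made from both replicates, against 65.8% and 67% of all genes. The IDR list of each replicate had 8 of the 16, against 52.7% of genes in replicate 1 and 46.2% in replicate 2. Of 12 T cell markers, 3 had one in the main list, Cd5, Gata3 and Il7r. Replicate 1 had 4 and replicate 2 had 2 in their IDR lists. The replicated and pseudoreplicated lists of both replicates each had 6 of the 12. The pseudoreplicated list of replicate 1 had 7 (against 64.2% of genes) and that of replicate 2 had 4 (62.5%). Among the 12, Gata3 and Il7r had a region in all 8 lists, and Cd4, Cd8a, Cd8b1, Tcf7 and Themis had none in any. The rest, Cd2, Cd5, Cd6, Bcl11b and Thy1, had one in some lists. The main list counts were 1 of 8 for natural killer cell markers, 2 of 8 for B cell markers, 1 of 8 for neutrophil and monocyte markers and 3 of 6 for red cell markers, to be read against the same 52.3%.

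Of the 8 genes, 3 had an accessible region within 1 kb of an annotated protein-coding start in the main list, namely Cd3d, Lat and Cd28, against 52.3% of all protein-coding genes. The Cd3d region was not at the gene's promoter. It lay in the 3′ untranslated region, within 1 kb of the start of a short transcript whose true 5′ end the annotation marks as not found. With such incomplete starts left out, a choice made after the data were seen, 2 of the 8 genes remained, Lat and Cd28, against 52.3% of genes. The count of 3 held in the IDR list of both replicates, against 57% of genes, and in the IDR lists of replicate 1 (52.7%) and replicate 2 (46.2%). It was 5, with Lck and Zap70 added, in the replicated list (65.8%), the pseudoreplicated list of both replicates (67%) and that of replicate 1 (64.2%), and 4 in the pseudoreplicated list of replicate 2 (62.5%), which lacked Lck. Across all protein-coding genes, 49 of the 11432 with a region at a start, or 0.429%, had one at an incomplete start alone.

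**Figure D1:**
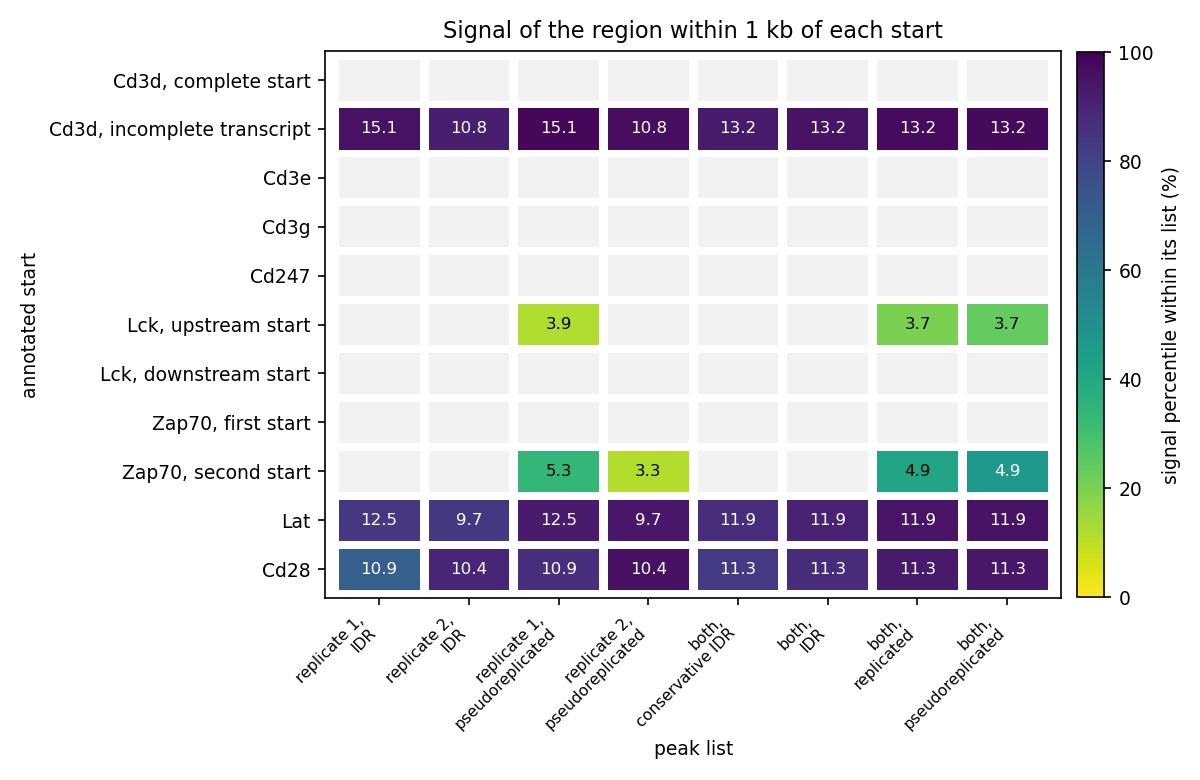
Signal of the region within 1 kb of each annotated start (rows) in each of the 8 peak lists (columns), with the colour giving the percentile of that signal within its list and pale cells marking no region. The incomplete Cd3d start, Lat and Cd28 are filled in all 8 lists. The complete Cd3d start, Cd3e, Cd3g, Cd247, the downstream Lck start and the first Zap70 start are empty in all of them.

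Cd3g, Cd3d and Cd3e encode the CD3γ, CD3δ and CD3ε chains, which pair as γε and δε beside the antigen-binding chains. They occupy 40.1 kb of chromosome 9 (chr9:44969572-45009627). Cd3d and Cd3g are transcribed away from each other from starts 1355 bp apart, and the Cd3e start lies 27.8 kb from that of Cd3d. No region lay within 1 kb of the complete Cd3d start, of the Cd3g start or of the Cd3e start in any of the 8 lists. The nearest summit was 4.81 kb from the complete Cd3d start, 6.17 kb from the Cd3g start and 23.0 kb from the Cd3e start in the main list, and it was the same region for all 3 genes.

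The sequences upstream of the divergent Cd3d and Cd3g starts are shown because this pair of neighbouring promoters had no region in any list. They are the 250 bases before each start, 5′ to 3′ on the gene's own strand, on GRCm38 (mm10), chr9:44981536-44981785 on the plus strand for Cd3d and chr9:44980432-44980681 on the minus strand for Cd3g. Capitals mark matches on either strand to the letters GGAAG of ETS family factors, TGTGGT of RUNX factors, AGATAA of factors of the GATA family, CTTTGA of TCF/LEF factors and CANNTG, the E-box.
Cd3d: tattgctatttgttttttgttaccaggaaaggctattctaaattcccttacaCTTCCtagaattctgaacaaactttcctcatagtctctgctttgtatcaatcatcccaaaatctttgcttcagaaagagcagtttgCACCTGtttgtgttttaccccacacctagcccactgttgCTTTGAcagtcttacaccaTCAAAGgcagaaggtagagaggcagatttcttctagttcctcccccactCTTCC
Cd3g: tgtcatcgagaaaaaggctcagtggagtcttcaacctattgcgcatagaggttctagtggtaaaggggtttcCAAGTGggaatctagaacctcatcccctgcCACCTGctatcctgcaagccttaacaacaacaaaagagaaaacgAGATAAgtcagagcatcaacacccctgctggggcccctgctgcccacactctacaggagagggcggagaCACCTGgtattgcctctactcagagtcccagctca
The Cd3d stretch held 2 ETS, 2 TCF/LEF and 1 E-box match, and the Cd3g stretch held 3 E-box and 1 GATA match. Over the same 250 bases of 21849 promoters, 64.6% held an ETS match, 63.8% an E-box, 13.6% a TCF/LEF match, 12.8% a RUNX match and 9.04% a GATA match. The GATA letters were thus present upstream of Cd3g and of fewer than 1 in 10 promoters, and no match says that a factor binds there.

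Among 946 pairs of neighbouring genes transcribed away from each other from starts at most 3 kb apart, 13% had a region summit at neither start in the main list. Cd3d and Cd3g were such a pair. Each summit was counted for the nearer start only, so a single region spanning both starts counted as 1 start. By that rule a summit lay at 1 start in 79.4% of pairs and at both in 7.61%. For the 761 pairs with starts at most 1 kb apart these shares were 87.1% and 3.81%. The split thus does not show that only 1 promoter of a pair was accessible. Neither start of the Cd3d and Cd3g pair had a summit in any of the 8 lists, and the share of pairs with none was lowest, at 6.55%, in the pseudoreplicated list of both replicates. Among the 108 pairs with starts between 1 and 2 kb apart, a range chosen after the data were seen, 29.6% had no summit at either start.

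The region in the Cd3d 3′ untranslated region (chr9:44986218-44986853) was 636 bp wide and was among the highest in signal of the 32. Its signal was 15.1 in replicate 1 and 10.8 in replicate 2, at percentiles 95.7 and 91.5 of their IDR lists. In the lists of both replicates together the signal was 13.2, at percentile 93.1 of the main list. Its summit was 4813 bp downstream of the complete start and 776 bp downstream of the incomplete one. The region stood high in both libraries. The percentiles of the 2 replicates in their pseudoreplicated lists, 98.1 and 96.7, were 1.38 points apart. That was less than in 89.5% of the 30925 main list regions present in both of these lists. Those regions were of every height, and percentiles near the top of both lists leave little room for a gap. In human, a T cell enhancer has been described at the 3′ end of CD3D.

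The 30 bases around the summit of this region (chr9:44986584-44986613, plus strand, mm10) are shown because they are the most accessible point of the Cd3 cluster. None of the 5 motifs marked in capitals elsewhere occurred in them with its full letters, and shorter forms were not searched.
Cd3d 3′ region: gtttcctgtgggcagggtcagcccagccac
Over its full width the region held 5 ETS matches, 53 to 219 bp from the summit, and 2 RUNX matches, 77 and 96 bp from it. It also held 1 TCF/LEF match, 1 E-box and 1 match to TGGGAA, the Ikaros letters, which shared bases with an ETS match, and no GATA match.

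The windows of Cd3d, Cd3e and Cd3g held 3, 3 and 4 main list regions, against a median of 3 over all genes. A narrow region of 340 bp lay 13.4 kb downstream of the Cd3g start, beyond the gene's end (chr9:44966800-44967139), with a signal of 8.98 in replicate 1 and 6.52 in replicate 2, at percentiles 45.7 and 35.9 of their IDR lists. It lay between Cd3g and the start of the neighbouring gene Ube4a, nearer to Ube4a but more than 1 kb upstream of that start. Measured from the complete Cd3d start, Ube4a began 16.2 kb upstream and the region reached 15.0 kb upstream. Among main list regions of the 3 Cd3 windows it was the only one at no annotated start, with the incomplete Cd3d start counted as a start. The remaining main list regions of the 3 windows lay at the promoters of neighbours with other functions, Ube4a, a ubiquitin ligase gene (signal 11.5 in replicate 1 and 7.71 in replicate 2), and Atp5l, which encodes a subunit of the mitochondrial ATP synthase (10.3 and 7.44). Mpzl2 and Mpzl3, adhesion protein genes upstream of Cd3e, had promoter regions only in permissive lists, with signals of 3.58 and 5.77 in the pseudoreplicated list of both replicates. Cd3e itself had a region beyond its 3′ end, 11.3 kb from its start, in that list (3.52) and in the pseudoreplicated list of replicate 2 (3.57), and a weaker one in its 3′ untranslated region in replicate 2 (2.62). Replicate 1 had no region in the Cd3e gene body.

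**Figure D2:**
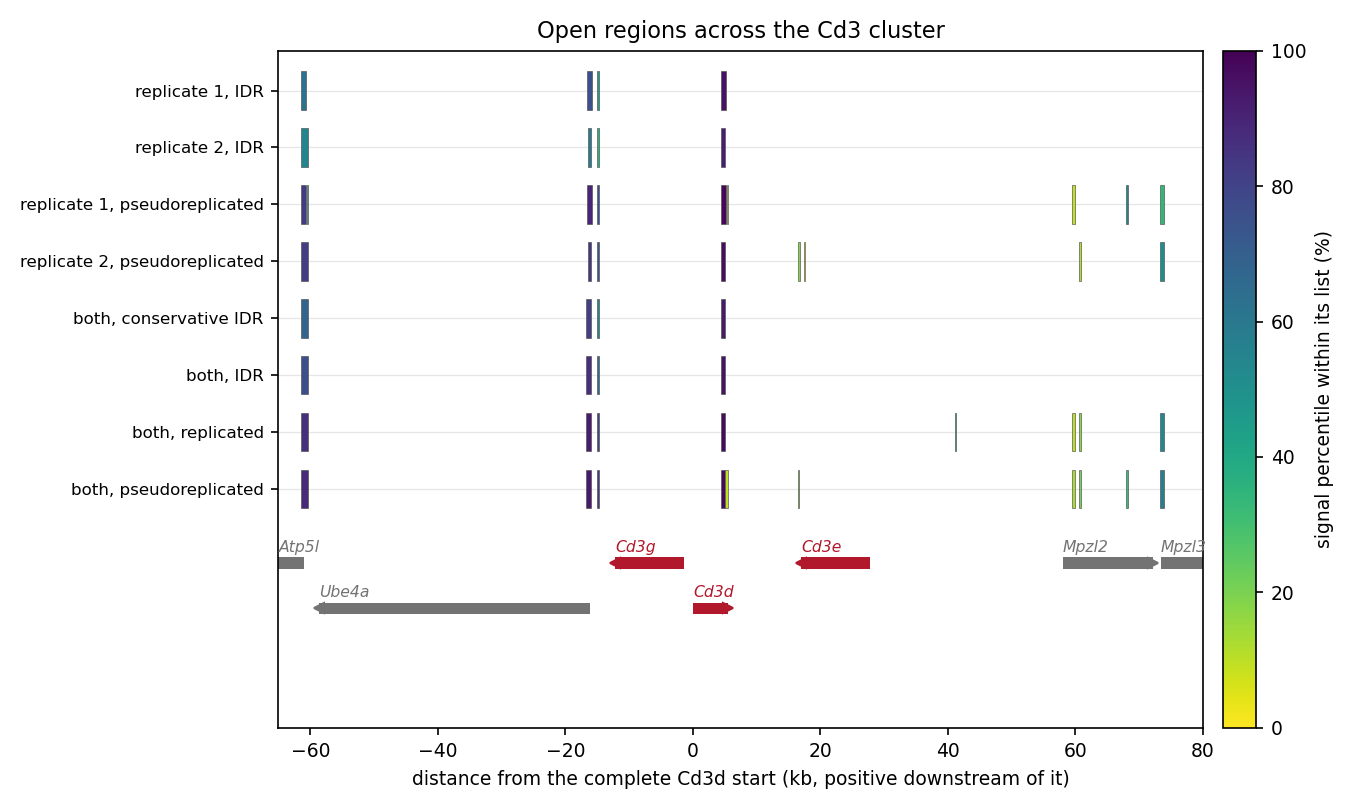
Regions of the 8 peak lists across the Cd3 cluster, by distance in kb from the complete Cd3d start, with gene bodies below and arrowheads giving the direction of transcription. The bar at 4.81 kb, in the 3′ part of Cd3d, is present in every list. The gap between Cd3d and Cd3g, where both genes start, is empty in every list.

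By the signal at a start across the 8 lists, the genes most like Cd3d were Pabpn1, Spout1, Ube2f, Cep192 and Mtmr6. Their percentiles differed from those of Cd3d by 0.373 to 0.584 points (root mean square over 8 lists, which share the reads of the 2 libraries). The likeness is one of height alone.

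Cd247 encodes CD3ζ, the chain with the most signalling motifs of the complex, and spans 88.6 kb of chromosome 1 (chr1:165788681-165877277). No list had a region within 1 kb of its starts. Its window held 5 main list regions, 1 of them at the promoter of Creg1 (signal 11.7), and the others had low signals of 4.77 to 6.21. Of the others, 2 lay in Cd247 introns, 56.4 and 67.2 kb from the starts. The first of these had signals of 5.03 in replicate 1 and 4.40 in replicate 2, at percentiles 3.18 and 2.86 of their IDR lists. The second passed the IDR threshold in replicate 1 (6.26) but appeared for replicate 2 only in the pseudoreplicated list (3.50). Permissive lists showed more of the locus: 20 regions in the pseudoreplicated list of replicate 1 and 10 in that of replicate 2. Per 100 kb of window that is 10.6 regions in replicate 1 and 5.30 in replicate 2, above 84.9% and 61.0% of genes. The nearest summit to the start was 2.09 kb upstream, in the pseudoreplicated list of both replicates (3.41).

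Lck encodes the kinase that starts T cell receptor signalling and is transcribed, in mouse, from a distal and a proximal promoter. The annotation gives an upstream start and a group of downstream starts 15.3 kb into the gene (chr4:129548344-129573641, minus strand). No region lay at either in the main list or in either replicate's IDR list. At the upstream start a weak region was present in the replicated and pseudoreplicated lists of both replicates (signal 3.72) and in the pseudoreplicated list of replicate 1 (3.93, percentile 12.1), and it was not listed for replicate 2. The ranked list of replicate 1 gave it an IDR score of 146, on a scale that ends at 1000, and those of both replicates gave it 353 and 422. The 250 bases before this start (chr4:129573642-129573891, minus strand) held 3 ETS matches and 1 RUNX match, in capitals as above, and are shown because the libraries differed at this start.
Lck upstream start: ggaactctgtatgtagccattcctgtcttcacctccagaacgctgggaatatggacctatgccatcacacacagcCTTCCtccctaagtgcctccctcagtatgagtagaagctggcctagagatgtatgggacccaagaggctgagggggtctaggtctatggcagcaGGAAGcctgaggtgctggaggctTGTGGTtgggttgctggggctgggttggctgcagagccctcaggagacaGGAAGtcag

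Lck had the most regions in its window of the 8 genes in the main list and in each replicate's IDR list, while Cd247 had more in the replicated list and in the pseudoreplicated lists of both replicates and of replicate 1. The Lck window held 9 main list regions, more than 93.1% of genes, whose median was 3. Each replicate's IDR list also held 9, and all 9 were shared in both directions. Per 100 kb this was 7.18 regions, above 94.1% of genes in the main list. Of the 9, 4 lay at the promoters of other genes: Hdac1, a histone deacetylase gene (signal 11.7), the pair Eif3i and Tmem234 (11.3), Iqcc (8.75) and Marcksl1 (6.66). A region 1.74 kb upstream of the upstream start (chr4:129575046-129575649) had signals of 10.1 in replicate 1 and 7.51 in replicate 2, at percentiles 60.7 and 55.6. A region 1005 bp wide inside the gene (chr4:129555920-129556924), 1.76 kb downstream of the nearest start, had 9.99 in replicate 1 and 6.01 in replicate 2, at percentiles 59.3 and 25.0. By main list signal the highest region at no start was 35.2 kb upstream, over an exon of Dcdc2b, with 13.0 in replicate 1 and 6.21 in replicate 2, at percentiles 86.9 and 29.2. In replicate 2 the highest was instead a region 11.4 kb upstream, with 10.5 in replicate 1 and 8.16 in replicate 2, at percentiles 64.6 and 66.6. The libraries thus placed the regions 1.74 and 11.4 kb upstream alike, and placed the intragenic one and the one over Dcdc2b higher in replicate 1. The IDR lists differ in length. In the longer pseudoreplicated lists the intragenic region was 13.5 points higher in replicate 1 and the one over Dcdc2b 23.6 points. Of the main list regions in both of those lists, 35.0% and 13.6% differed by more.

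**Figure D3:**
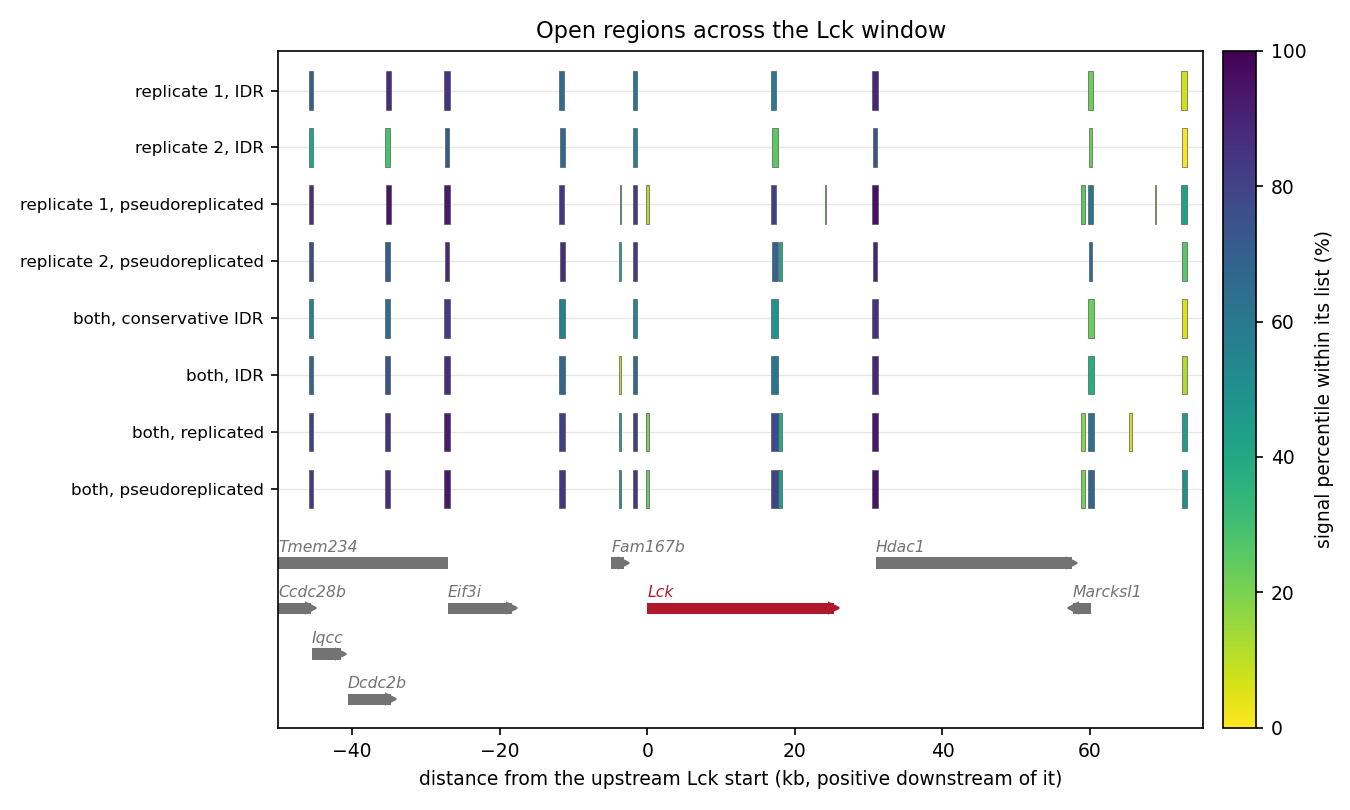
Regions of the 8 peak lists across the Lck window, by distance in kb from the upstream Lck start, with gene bodies below and arrowheads giving the direction of transcription. A region 1.74 kb upstream of that start is present in every list. A bar at the start itself appears in 3 lists, at low percentiles and in none from replicate 2.

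Zap70 encodes the kinase recruited to phosphorylated CD3 and CD3ζ chains (chr1:36761798-36782818). Its first start had no region in any list. A second annotated start 5.14 kb downstream had a region in permissive lists, with a signal of 5.26 in replicate 1 (percentile 33.6) and 3.26 in replicate 2 (percentile 11.5), and of 4.93 in the replicated and pseudoreplicated lists of both replicates. Its IDR scores were 322 in replicate 1 and 136 in replicate 2. The region was thus found in each library and passed the IDR threshold in neither. The main list had 5 regions in the window, none at a neighbour's promoter, but the IDR list of replicate 1 had 1 and that of replicate 2 had 2. The highest, 30.7 kb downstream of the second start in an intron of Tmem131, had signals of 11.0 in replicate 1 and 7.52 in replicate 2, at percentiles 71.0 and 55.8, and was the only one shared by both IDR lists.

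Lat encodes the adaptor that ZAP-70 phosphorylates, and it had a region directly at its start. The region was 899 bp wide (chr7:126369064-126369962) with its summit 7 bp upstream of the first start. Its signal was 12.5 in replicate 1 and 9.70 in replicate 2, at percentiles 84.0 and 83.9 of their IDR lists, so the libraries placed it alike. In the main list it was 11.9, at percentile 87.2. The window also held the promoter regions of Nfatc2ip (16.2 in replicate 1 and 12.6 in replicate 2), the highest of the 32 regions, and Spns1 (11.6 and 7.95). Lat was thus not the highest promoter of its own window.

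Cd28 encodes the costimulatory receptor, and no other protein-coding gene starts in its window. A region of 500 bp lay over the start (chr1:60746085-60746584), with its summit 33 bp downstream in the 5′ untranslated region. Its signal was 10.9 in replicate 1 and 10.4 in replicate 2, at percentiles 69.9 and 89.2 of their IDR lists. The signals were close and the rank was higher in replicate 2, where the median signal of all IDR regions was lower (9.29 in replicate 1 and 7.21 in replicate 2). A second region, 586 bp upstream of the start, had 7.18 in replicate 1 and, in the pseudoreplicated list only, 4.93 in replicate 2. A region in the gene's intron 9.64 kb downstream of the start was in both IDR lists (8.25 in replicate 1 and 6.55 in replicate 2). By main list signal the highest region away from the start lay 43.6 kb upstream (chr1:60702549-60703199), with 8.22 in the pseudoreplicated list of replicate 1, just under the intronic region, and 8.33 in the IDR list of replicate 2. A last one, 76.8 kb downstream, had 7.08 in replicate 1 and, in the pseudoreplicated list only, 4.76 in replicate 2.

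The 250 bases before the Lat and Cd28 starts, chr7:126369542-126369791 on the minus strand and chr1:60746108-60746357 on the plus strand, are shown because these are the complete starts with a region in every list. Capitals are as above.
Lat: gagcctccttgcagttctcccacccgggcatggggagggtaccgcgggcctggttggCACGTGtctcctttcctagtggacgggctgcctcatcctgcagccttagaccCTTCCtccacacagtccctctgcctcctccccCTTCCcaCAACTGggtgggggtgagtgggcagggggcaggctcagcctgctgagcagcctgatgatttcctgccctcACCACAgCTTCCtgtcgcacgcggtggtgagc
Cd28: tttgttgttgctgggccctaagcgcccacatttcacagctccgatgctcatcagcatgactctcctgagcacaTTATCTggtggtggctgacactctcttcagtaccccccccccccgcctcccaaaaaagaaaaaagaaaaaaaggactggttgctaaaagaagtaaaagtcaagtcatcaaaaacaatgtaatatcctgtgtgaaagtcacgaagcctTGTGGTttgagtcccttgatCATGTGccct
The Lat stretch held 3 ETS, 2 E-box and 1 RUNX match, and the Cd28 stretch held 1 RUNX, 1 GATA and 1 E-box match and no ETS match. Within 100 bp of the summit, the 4 regions at a start of these genes, the Cd3d one and both Cd28 ones included, each held the RUNX letters. Those letters occurred around 9.83% of the promoter summits of the main list and 30.4% of the other summits. Within 50 bp, only the Lat region and the Cd28 region over the start held them, against 5.53% of promoter summits and 20.5% of the others. RUNX was 1 of 9 motifs searched, and no match was tested. Over all 32 regions, 9 held the RUNX letters within 100 bp and none held the GATA letters. The GATA letters occurred around 2.59% of promoter summits and 8.71% of the others.

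The starts of all 8 genes were poor in CpG. The ratio of observed to expected CpG in the 501 bases around the first complete start was lowest at Cd3g (0.115) and highest at Lat (0.354), with Cd28 at 0.148 and Cd3d at 0.149, against a median of 0.596 over 21826 genes. Of the 8389 genes with a ratio below 0.4, 11.6% had a main list region at that start, against 72.5% of the genes with a higher ratio. Among the 8 genes, Lat and Cd28 had one. Genes with starts as poor in CpG thus had a region less often than genes at large. Lat and Cd28 lie at the top and near the bottom of the range of the 8, so the ratio did not separate the genes with a region from those without.

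**Figure D4:**
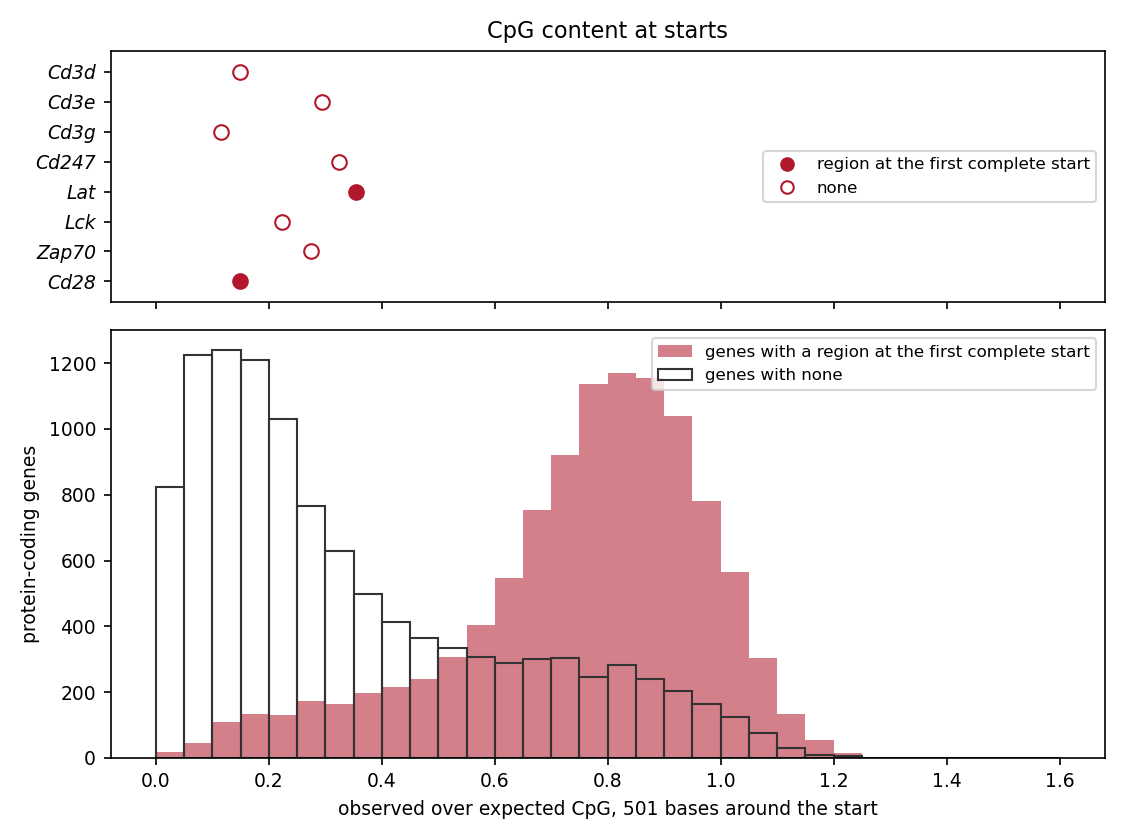
Observed over expected CpG in the 501 bases around the first complete start, for the 8 genes (above, filled where the main list had a region there) and for all protein-coding genes (below) with such a region (shaded bars) and without (outlined bars). The 8 genes lie between 0.115 and 0.354. Across all genes the median was 0.794 with a region and 0.251 without.

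Of the 32 main list regions, 4 lay at a start of these genes, 9 at a start of another gene, 4 inside one of the 8 gene bodies and 15 elsewhere. Of all 31532 main list regions, 11226 had their summit within 1 kb of a protein-coding start. The median signal percentile was 55.2 over the 32. It was 81.6 over the 9 at neighbours' promoters and 33.8 over the other 23. Both pseudoreplicated lists of single replicates held all 32, and they held 30925 of all 31532 main list regions. Of the 32, 21 were in the IDR lists of both replicates, 4 in that of replicate 1 alone, 2 in that of replicate 2 alone and 5 in neither. These counts in the IDR lists have no share over all main list regions beside them.

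Of the 27 regions that the IDR list of replicate 1 had in the windows, 21 (77.8%, 95% Wilson interval 59.2 to 89.4) overlapped one of replicate 2, against 56.5% of all its regions. Of the 24 regions of replicate 2, 21 (87.5%, 69.0 to 95.7) overlapped one of replicate 1, against 87.5% of all. The intervals cover counting error only. The share differed between the loci. Every region in the windows of Cd3d, Cd3e, Cd3g, Lat and Lck was shared in both directions. The Cd3d, Cd3e and Cd3g windows overlap and largely hold the same regions, so they are 1 locus here. For Cd247, 2 of 5 regions of replicate 1 and 2 of 3 of replicate 2 were shared, and likewise for Cd28. For Zap70, 1 of 1 region of replicate 1 and 1 of 2 of replicate 2 were shared. Regions at promoters, neighbours' included, were shared in 12 of 13 cases in each direction, against 79.4% of all promoter regions of replicate 1 and 95.3% of those of replicate 2. Away from promoters 9 of 14 regions of replicate 1 and 9 of 11 of replicate 2 were shared, against 44.9% and 81.6%.

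The percentile in the pseudoreplicated list was higher in replicate 1 than in replicate 2 for 21 of the 32 regions. The same held for 60.2% of the 30925 main list regions present in both pseudoreplicated lists. The difference had a median size of 6.53 points over the 32, against 9.08 points over those 30925. It was widest at the intronic Cd247 region 67.2 kb from the starts, 32.5 points higher in replicate 1. Among the regions lower in replicate 1 it was widest at the distal Cd28 region 43.6 kb upstream, by 18.8 points. At the Lat start it was 0.809 points lower in replicate 1, and at the Cd28 start 9.16 points lower.

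**Figure D5:**
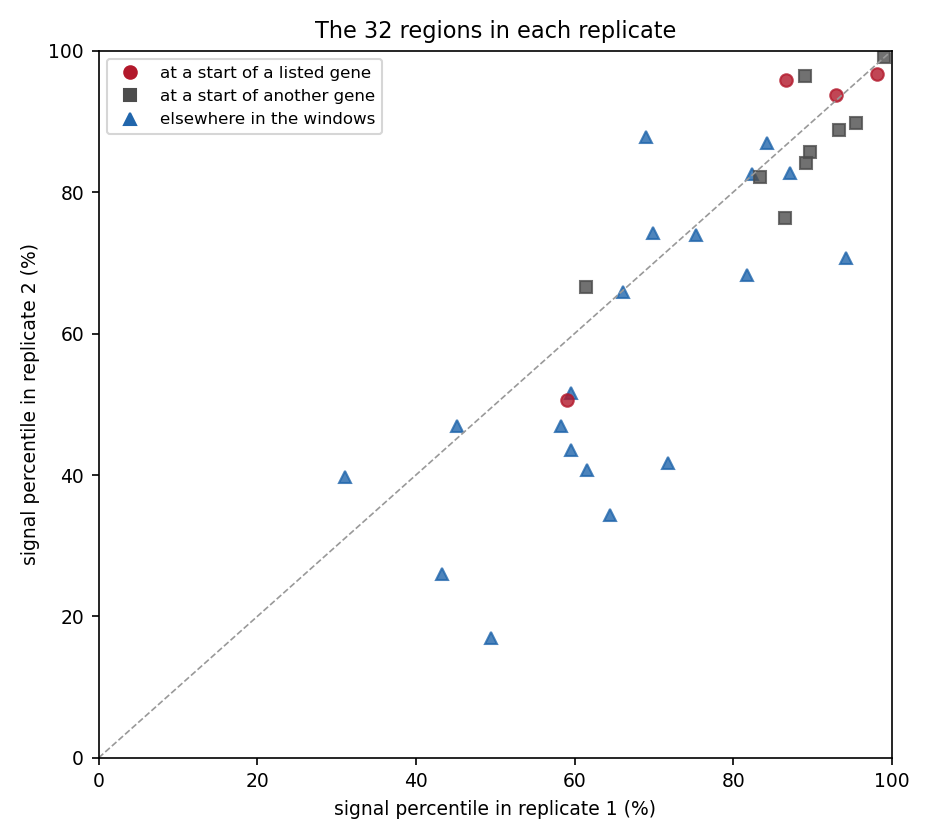
Signal percentile of the 32 main list regions in the pseudoreplicated list of replicate 1 (horizontal axis) and of replicate 2 (vertical axis), with the dashed line marking equal percentiles. Regions at starts, of these genes or of others, lie mostly at the upper right. Regions elsewhere are more spread and lie on both sides of the line, down to percentile 17.0 in replicate 2.

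Of 48 further genes of the pathway, 27 (56.2%) had a region at a start in the main list, against 52.3% of all genes. The IDR list of replicate 1 had 31 (64.6%, against 52.7%) and that of replicate 2 had 24 (50%, against 46.2%). The other lists of both replicates had 35 (72.9%, against 57%) for IDR, 39 (81.2%, against 65.8%) for replicated and 38 (79.2%, against 67%) for pseudoreplicated. The share was above that of all genes in each of these lists, and was not tested. The excess was larger in the other lists of both replicates than in the main list, but did not rise with list length among them. The highest by main list signal was at Grb2, a widely used adaptor gene (17.2), with a signal of 18.8 in replicate 1 and 12.7 in replicate 2. In that list it was followed by Nck1 (13.0), Grap2 (12.9), Cblb (12.3) and Fyn (12.2), in an order that the single replicates did not keep. Their signals in replicates 1 and 2 were those of Nck1, another adaptor (12.1 and 12.7), Grap2, the adaptor that joins LAT to SLP-76 (13.4 and 10.3), Cblb, a ubiquitin ligase that restrains T cell activation (12.4 and 12.4), and Fyn, a kinase of the same family as Lck (11.5 and 11.3). The coreceptor genes Cd4, Cd8a and Cd8b1, the inhibitory receptor gene Ctla4 and Ptcra, which encodes the pre-T cell receptor α chain, had no region in the IDR or pseudoreplicated lists of either library, although Ctla4 had one in the replicated list of both (3.20). Syk, the kinase most like ZAP-70, was named after its values were seen: its start had a signal of 12.1 in replicate 1 and 5.55 in replicate 2, where neither start of Zap70 passed an IDR threshold. Fyn and Syk thus had regions at a start in both IDR lists, and Lck and Zap70 had none in either.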

How the data were processed

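Peak lists from 2 ATAC-seq libraries of 1 group were used. Per the labels the files are on mm10; the sources used here do not give the aligner, the peak caller or the treatment of the transposase offset. The authors deposited a signal for every peak and state neither its scaling nor a control. The score of a ranked peak, up to 1000, is likewise the value the authors deposited, and served only to describe peaks at starts. Read depth is unknown. No column of other samples was present.

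The 8 genes, the gene lists, the motifs and the alternatives were chosen with earlier results of these data known. Peaks overlapping by at least 1 base were merged within a list with Python 3.11.15 and numpy 2.4.6, keeping the highest signal and its summit. Gene bodies and starts came from GENCODE M21, and a region at a start lay within 1 kb of any protein-coding transcript start. Windows were gene bodies with 50 kb on each side, over 21 chromosomes. The merging of peaks, the window counts and the overlap with promoters were tested on simulated peaks. Shares have 95% Wilson intervals (SciPy 1.17.1), covering counting error only. Motifs were searched on both strands within 100 bp of summits. Sequences came from the GRCm38 reference.

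The genes named were the 8, the highest region at no start in each window, the neighbours in the Cd3 windows, 5 pathway genes of highest signal, 5 in alphabetical order with no region in either replicate, and the 5 most like Cd3d. Syk was chosen after seeing its values. With 1 group there was no test between conditions. Alternatives were the other lists, a replicate left out, regions of above-median signal, and other promoter, window, overlap, pair and motif settings.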

Additional observations from a re-analysis of the deposited data

How the results depend on the processing

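The count of genes with a region at a start, 3 of 8, was 5 in the replicated list, the pseudoreplicated list of both replicates and that of replicate 1. It was 3 with either replicate left out, 2 with complete starts only, an alternative chosen after seeing the data, and between 2 and 4 under the remaining settings. With first starts only it was 2, against 49.1% of all genes. The counts for above-median signal, other promoter widths and summits inside the promoter have no share over all genes beside them. The count of pathway genes, 27, was 14 with above-median signal only. That 14 has no share over all genes beside it, so the fall cannot be read as a result about pathway genes. The count ran from 24 to 31 with a replicate left out, and was 35 in the IDR list of both replicates and 39 in the replicated list. It was 38, 38 and 36 in the pseudoreplicated lists of both replicates, replicate 1 and replicate 2. The 32 regions became 63 in the replicated list, 68, 69 and 54 in the pseudoreplicated lists of both replicates, replicate 1 and replicate 2, 17 with above-median signal, 16 with windows of 10 kb and 58 with windows of 100 kb. They were 24 to 27 with a replicate left out, and 23 without regions at other genes' promoters, also chosen after seeing the data. Sharing, 77.8% of replicate 1's regions and 87.5% of replicate 2's, was 96.3% and 100% against the pseudoreplicated list of the other replicate, where it was 86.4% and 99.1% over all regions. The share of divergent pairs with no summit, 13.0%, was 10.1% in the IDR list of both replicates, 6.55% in their pseudoreplicated list, 9.07% for starts within 1 kb and 16.2% within 5 kb, and ran from 12.2 to 18.8% with a replicate left out. Cd3d and Cd3g had 0 starts with a summit under each setting that could include them, which the 1 kb limit could not. The median signal of the 32 regions, 8.70, was 6.65 as the mean of merged peaks, and motif matches at the 4 start regions, 20, were 7 within 50 bp of summits. Longer lists and wider windows hold more regions by construction; for the other moves the cause was not tested. No paired analysis was possible because there was 1 group. Unknown depth limits what the absence of a region can show.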
